A study of Mus musculus with 24 samples.

Results

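The cold response of brown adipose tissue (BAT) was examined in the mice that lacked the Cre recombinase, in 12 of the 24 libraries of the study. These were the 6 libraries labelled Ucp1CreERT2 negative at 8°C and the 6 labelled Ucp1CreERT2 negative at 30°C, called Cre- here and chosen by their labels alone. The other 12 libraries were labelled BATdKO, 6 at each temperature, and came from mice in which the Ucp1 promoter drove a tamoxifen-inducible Cre that deletes the corepressor genes Tbl1xr1 (TBLR1) and Tbl1x (TBL1) in brown adipocytes. They enter the common fit, and so the estimate of the spread behind each p, and they show how the genes of the Cre- response behaved in other mice. With the 12 Cre- libraries alone 930 genes were called, 609 higher and 321 lower, where the common fit gave 695 and 448. The Cre- mice carried the same floxed alleles and received tamoxifen as well, on a C57BL6/N background. All mice were raised at 22°C and entered the experiment 3 weeks after the last tamoxifen dose. The cold groups passed through 18, 16 and 12°C, 1 day each, and then stayed at 8°C for 6 days, whereas the warm groups stayed for 4 days at 30°C, near thermoneutrality for a mouse. The 2 groups therefore differed in temperature, in the stepwise cooling and in the number of days since the transfer. The numbers of the warm and of the cold libraries also formed 2 separate runs. What these runs stand for is not given, and a difference between them cannot be told apart from cold. The labels describe females and give the age at tamoxifen as 5 years, where the methods of the study count in weeks. The published account gives males and a shorter time in the cold. It also removed outlying samples and shows fewer mice per group than the 6 used here. Which libraries it left out is not given. Mice are called m1 to m6 within a group, a name that pairs no animals.

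BAT is a heat-producing organ. In the cold, sympathetic nerves release noradrenaline onto β-adrenergic receptors of brown adipocytes, cAMP rises, stored triglyceride is hydrolysed, and uncoupling protein 1 (UCP1) lets protons return to the mitochondrial matrix so that the oxidation of fuel yields heat in place of ATP. At thermoneutrality this drive is low. A tissue that works for days in the cold also takes up glucose and fatty acids, and its lipid stores turn over through simultaneous breakdown and synthesis.

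RNA was sequenced as tags near the 3′ end of transcripts, and a long transcript gives no more tags than a short one. Values below are CPM, counts scaled to the library size after TMM normalization, and differences are log2 fold changes of 8°C against 30°C with their standard errors (SE) from edgeR. A gene is called where its adjusted p is under 0.1, the threshold of the study. The Cre- libraries held 5449299 to 9911940 counts at 8°C (median 6776668) and 699703 to 11126592 at 30°C. The shallowest was Cre- 30C m4, and leaving it out gave 1177 called genes in place of 1143.

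The libraries held more than brown fat transcripts. Ucp1, Cidea, Adipoq, Plin1 and Fabp4, which define brown or any fat, were counted in all 12 libraries. Albumin and the major urinary proteins, secreted by the liver, took larger shares of the counts than these genes. Mean CPM at 30°C and 8°C were 10400 and 10800 for Alb, 177 and 1540 for Ucp1, and 738 and 1050 for Fabp4. The list of thermogenic and brown identity genes took 0.202 to 0.361% of the counts at 30°C and 0.365 to 0.52% at 8°C. The 22 Mup genes took 13.1 to 16.5% of the counts at 30°C and 11.4 to 15.2% at 8°C, and the 29 hepatocyte markers 6.89 to 8.6% and 6.01 to 7.86%. Alb, at 0.954 to 1.5% and 0.874 to 1.17%, was above Ucp1 in all 12 libraries, and the BATdKO libraries had 0.633 to 1.35%. None of the 29 hepatocyte markers was called for cold (log2 fold changes from -0.14 to 0.09, median -0.04). A fold change of a gene that the liver also expresses is one over the whole library. What this share does to single results was not tested. Xist and the Y-linked genes Ddx3y, Kdm5d, Eif2s3y and Uty were all counted in every library, with at least 26 counts of Xist and 35 of the Y-linked genes together, although the labels name a single sex. Skeletal muscle fibre markers, 30 genes, ranged from 0.0115 to 1.95% of the counts at 30°C, highest in m3 and next in m1 (0.912%), and from 0.00927 to 0.399% at 8°C.

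**Figure D1:**
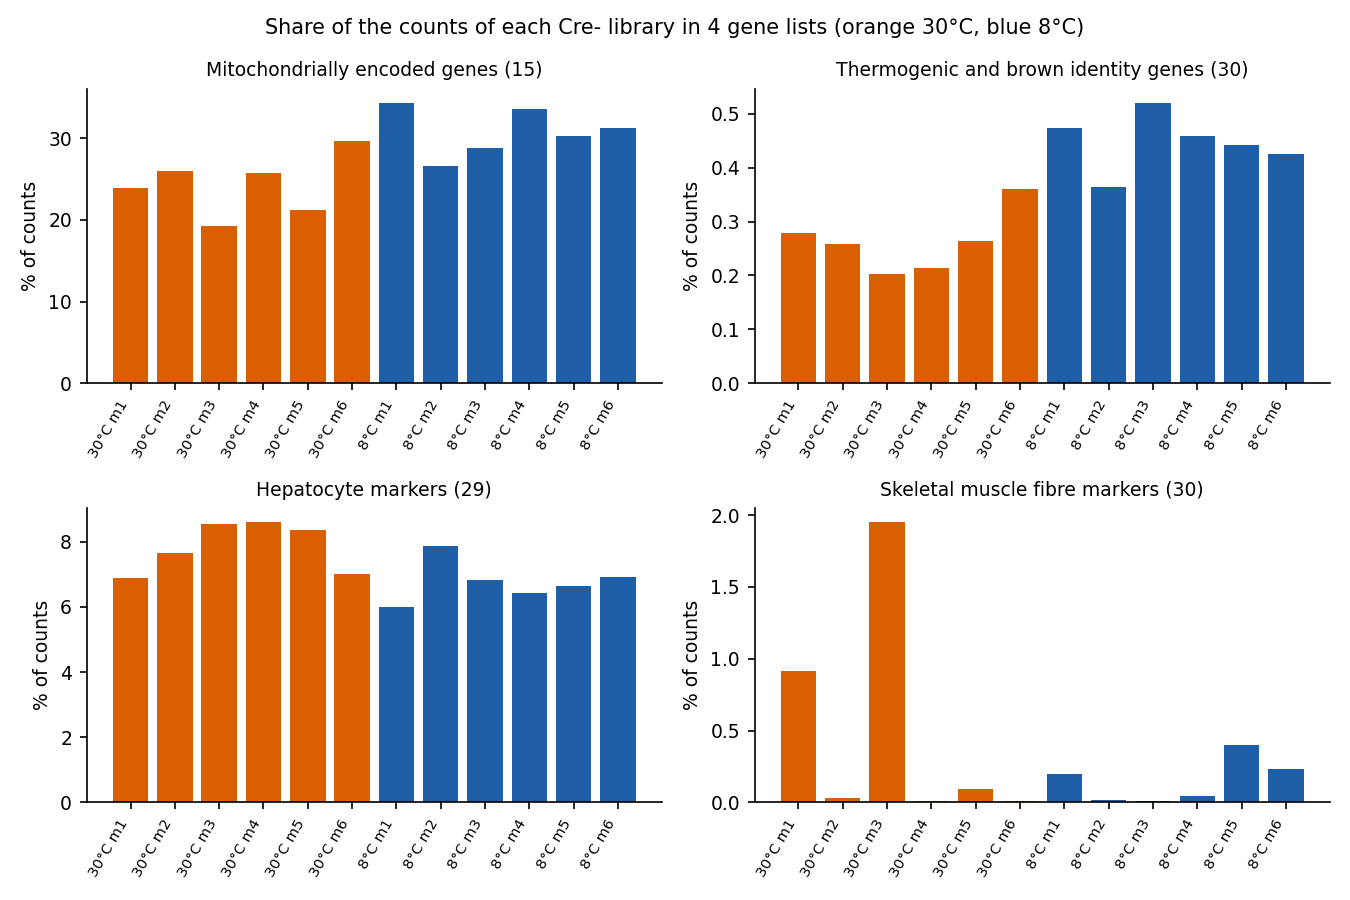
Share of all counts of each Cre- library, in percent, held by 4 lists of genes, with the 6 libraries at 30°C in orange and the 6 at 8°C in blue. Mitochondrially encoded genes and thermogenic genes were higher in most cold libraries, hepatocyte markers lay between 6.01 and 8.6% throughout, and muscle fibre markers were concentrated in Cre- 30C m3 and m1.

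The library labelled Cre- 30C m6 was nearer to the cold group than to its own. Its log2 CPM correlated at 0.9785 with the mean of the Cre- 8C libraries and at 0.9739 with that of the other Cre- 30C libraries. This is Pearson's r across genes, which are not replicates. No other Cre- library was closer to the other temperature, although Cre- 30C m1 was nearly level (0.9717 against 0.972 with its own group). With their own group Cre- 30C m1, m3 (0.9583) and m4 (0.9097) correlated less than m6 did. Cre- 30C m6 held 547.9 CPM of Ucp1, where the other 5 warm libraries held 28.9 to 133. It held 38.6 CPM of Tbl1xr1, where the other 11 Cre- libraries held 16.4 to 24.6. The library labelled BATdKO 30C m6 had 17.0 CPM of Tbl1xr1 against 29.8 to 44.3 in the other 11 labelled BATdKO. Each m6 library thus had the Tbl1xr1 level of the other labelled genotype, and whether the labels of these libraries are exchanged was not tested. Apart from these, the deleted gene read higher in the libraries labelled BATdKO. A 3′ tag need not lie in the deleted exons, so these values do not check the deletion. Results are given with all 12 libraries, and without Cre- 30C m6 where it matters. Of the 123 genes named by rule and called, 117 were also called without it, and 95 stayed called whichever of the 12 Cre- mice was omitted. Calls that held in 6 or fewer of these fits were those of Hspb1, Ccne2, Pcx, Them4, Cox6a2, Cd36, Cryab, Eno3, Gpd1l and Gys2. Counts in the gene lists below that moved by over 1.5 times without Cre- 30C m6 did so by 1 gene, except where both counts are printed.

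With all libraries, 1143 of 12485 tested genes were called for cold (9.15%), 695 higher at 8°C (5.57%) and 448 lower (3.59%). Without Cre- 30C m6 there were 1343, of which 813 were higher and 530 lower. At an unadjusted p under 0.05 there were 2327. The CPM of the 6 cold and 6 warm libraries did not overlap for 366 of all tested genes (2.93%), among them 257 of the genes called higher and 70 of those called lower. The median absolute log2 fold change was 0.59 for genes called higher and 0.51 for genes called lower, and 130 and 70 of them, respectively, reached a log2 fold change of 1. The genes called higher took a median of 16.3% of the counts at 30°C and 22.3% at 8°C, those called lower 2.92% and 1.97%. The median over all tested genes was -0.02.

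**Figure D2:**
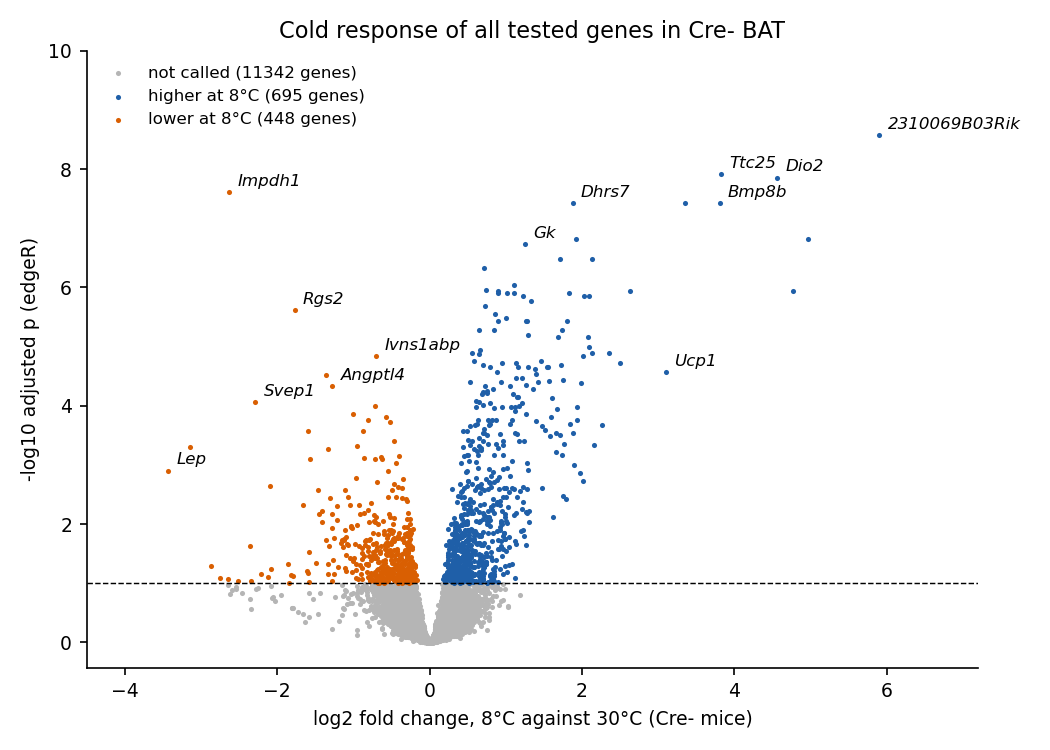
Each point is 1 of the 12485 tested genes, with the log2 fold change of 8°C against 30°C in Cre- mice on the x axis and the negative log10 of the adjusted p of edgeR on the y axis. The dashed line marks the adjusted p of 0.1, and 695 genes lie above it on the right and 448 on the left.

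Some thermogenic genes rose strongly, and others were not called. Of 30 tested genes of brown fat identity and thermogenesis, 14 rose, none fell and 16 were not called (16 higher without Cre- 30C m6), with a median log2 fold change of 0.43. Among those not called, and picked out after their values were seen, were Cidea, a lipid droplet protein (0.26, SE 0.26, adjusted p = 0.67), and Prdm16, a regulator of brown fat identity (0.89, SE 0.32, adjusted p = 0.111). Ucp1 (chromosome 8 from 83290352 to 83298452, GRCm38) was at 28.9, 129.7 and 547.9 CPM (lowest, median and highest) at 30°C and at 967.5, 1516 and 2076 CPM at 8°C. Every cold library lay above every warm one, the closest being m6 at 30°C and m2 at 8°C. Its log2 fold change was 3.10 (SE 0.44, adjusted p = 2.67e-05), an 8.56-fold rise, and 3.90 without Cre- 30C m6. Dio2 encodes the deiodinase that makes active thyroid hormone within the brown adipocyte. At 30°C it had 0.94, 0.31, 0.14, 0, 0.28 and 2.06 CPM in m1 to m6, and at 8°C 16.2, 14.2, 12.8, 18.7, 27.0 and 24.5 CPM. It was nearly silent in the warm and present in each cold library, with a log2 fold change of 4.56 (SE 0.38, adjusted p = 1.4e-08). Ppargc1a, the coactivator of mitochondrial gene expression, rose from a median of 16.2 to 38.4 CPM (1.27, SE 0.16, adjusted p = 3.71e-06) without overlap, and Letm1, a protein of the inner mitochondrial membrane, from 68.9 to 156 CPM (1.11, SE 0.13). Cox7a1, a subunit of cytochrome c oxidase typical of brown fat and muscle, rose by 1.04 (SE 0.22), and S100b, which promotes the sympathetic innervation of brown fat, by 1.71 (SE 0.29), from a median of 11.2 to 34.5 CPM.

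The start regions of Ucp1 and Dio2, for which cAMP signalling is a known switch, are shown. Regions were printed for those of the 20 leading genes that hold the palindromic cAMP response element TGACGTCA or the extended nuclear receptor site TNAAGGTCA. That of Ucp1 was printed whatever it held. Dio2 was thus shown because it holds the element, and finding it there was fixed by the rule. Each sequence is the RefSeq promoter of GRCm38.p6, 250 bases before and 50 after the transcription start, read 5′ to 3′ on the strand of the gene, and capitals mark the element. The Ucp1 region is chr8:83290098-83290397 on the plus strand and the Dio2 region chr12:90738989-90739288 on the minus strand.
Ucp1: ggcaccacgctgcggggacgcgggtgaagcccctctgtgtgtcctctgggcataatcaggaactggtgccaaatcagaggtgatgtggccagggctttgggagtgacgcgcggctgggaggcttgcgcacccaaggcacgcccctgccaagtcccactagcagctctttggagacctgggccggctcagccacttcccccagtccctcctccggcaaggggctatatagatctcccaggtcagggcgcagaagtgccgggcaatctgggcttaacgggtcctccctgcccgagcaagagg
Dio2: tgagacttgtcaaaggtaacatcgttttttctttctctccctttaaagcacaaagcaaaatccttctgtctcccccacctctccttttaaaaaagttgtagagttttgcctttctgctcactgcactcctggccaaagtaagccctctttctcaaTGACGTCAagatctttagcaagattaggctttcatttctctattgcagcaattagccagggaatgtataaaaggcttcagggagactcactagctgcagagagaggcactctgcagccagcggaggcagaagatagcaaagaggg
The vM21 gene model of Dio2 starts further downstream, at 90738438. In Dio2 the element began 95 bases before the start. In Ucp1 neither TGACGTCA nor any other motif sought was found in these 300 bases, which says nothing of its more distant enhancers. Promoters with the element were about as frequent among called as among tested genes. It was present, on either strand, in 3.19% of the 8675 tested promoters, in 3.75% of the 506 promoters of genes called higher and in 4.55% of the 286 of genes called lower. Its shorter part TGACGT, which every full element also holds, was in 12.0%, 13.6% and 10.5%. The E-box CACGTG was in 10.2%, 11.9% and 12.6%, the NRF2 site TGACNNNGC in 14.8%, 17.0% and 14.3%, the extended nuclear receptor site TNAAGGTCA in 0.761%, 0.198% and 0%, and the ATF4 composite site TGATGCAAT in 0.127%, 0% and 0.35%. Of the genes called higher that hold the full element, Clstn3 (log2 fold change 1.27, SE 0.20), Dusp1 (0.97, SE 0.24), which encodes a phosphatase of MAP kinases, and Ldha (0.49, SE 0.09), which encodes lactate dehydrogenase, were picked out after their values were seen.

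The genes of the adrenergic pathway itself moved less evenly. Of 36 tested members, 6 rose and 3 fell (9 and 3 without Cre- 30C m6). Neither Adrb3, the main β-adrenergic receptor of rodent fat (33.7 and 47.3 CPM as medians, log2 fold change 0.42, SE 0.25, adjusted p = 0.405), nor Adrb1 (0.45, SE 0.23, adjusted p = 0.306) was called. Sik1 and Pde4d, both known to be induced by cAMP, rose. Crem (0.20, SE 0.19), Nr4a2 (0.54, SE 0.20) and Pde4b (-0.27, SE 0.11) of the same list, picked out after their values were seen, were not called. Sik1, a kinase that restrains CREB-dependent transcription, was at 1.102, 1.501 and 1.985 CPM at 30°C and at 3.01, 6.54 and 8.87 CPM at 8°C (log2 fold change 2.01, SE 0.27, adjusted p = 1.42e-05). Pde4d, which degrades cAMP, rose by 1.22 (SE 0.19) from 7.53 to 17.7 CPM. Rgs2, which shortens signalling by G proteins, fell from 134.3 to 35.8 CPM by the median (log2 fold change -1.77, SE 0.21, adjusted p = 2.43e-06), although Cre- 30C m3, at 42.8 CPM, lay next to the highest cold library at 42.4. Adcy9, an adenylyl cyclase, fell by 0.59 (SE 0.15).

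**Figure D3:**
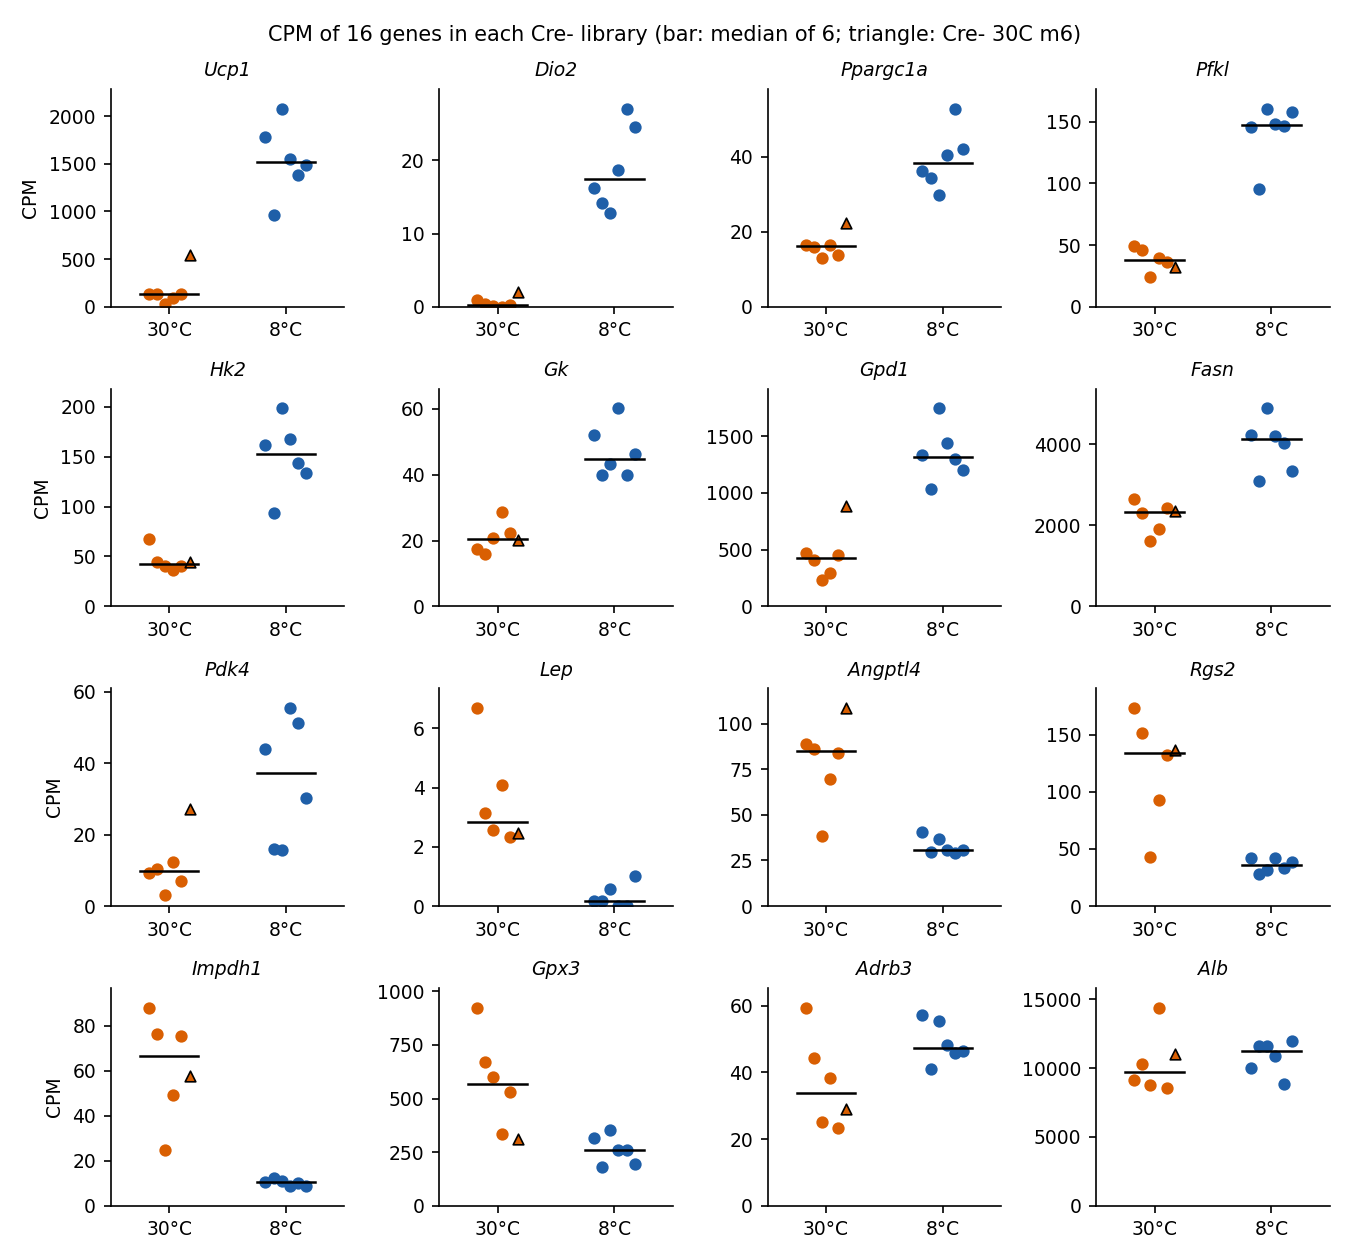
CPM of 16 genes in each of the 12 Cre- libraries on linear axes from 0, with 30°C in orange, 8°C in blue, the median of 6 as a bar and Cre- 30C m6 as a triangle. Ucp1, Dio2, Ppargc1a, Pfkl, Hk2, Gk, Gpd1 and Fasn rose and Lep, Rgs2 and Impdh1 fell without overlap, whereas Pdk4, Angptl4 and Gpx3 were called with overlap and Adrb3 and Alb were not called.

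The genes with the smallest p were not all genes of known thermogenic function. The 10 genes with the smallest p among those higher were 2310069B03Rik, Ttc25, Dio2, Acot11, Bmp8b, Dhrs7, Pfkl, Gm15241, Gk and Ddhd2, and none of them overlapped between the groups. Gm15241, annotated as an antisense RNA of Adgrg2, was at 0 in 4 of the 6 warm libraries, with 13 counts in all 6, and at 5.69, 8.89 and 15.2 CPM at 8°C (log2 fold change 4.97, SE 0.49, adjusted p = 1.52e-07). As strand use is not given, its reads cannot be told apart from those of its host. Ttc25, known from the assembly of cilia, rose from a median of 1.58 to 24.5 CPM (3.82, SE 0.31). Bmp8b, a secreted factor known to increase the response of brown fat to noradrenaline, rose from 0.906 to 11.6 CPM (3.80, SE 0.35), with exons that overlap Ppie on the other strand. Dhrs7, a dehydrogenase, rose from 37.3 to 138.6 CPM (1.88, SE 0.17), and Ddhd2, a lipase, from 44.98 to 130.3 CPM (1.71, SE 0.18).

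Among genes with the smallest p in the other direction, Impdh1, an enzyme of guanine nucleotide synthesis, fell from 25, 66.6 and 88.2 CPM to 8.73, 10.4 and 12.5 CPM, a 6.18-fold difference. Timp4, an inhibitor of matrix proteases, fell from a median of 7.27 to 3.02 CPM (log2 fold change -1.35, SE 0.19), Aqp1, a water channel of capillaries, from 98.9 to 64.1 CPM (-0.71, SE 0.11), and Pygb, a glycogen phosphorylase, from 16.4 to 8.55 CPM (-1.01, SE 0.16). Svep1, a large extracellular protein, fell from 6.22 to 1.63 CPM (-2.29, SE 0.35), and by 1.96 on the log2 scale without Cre- 30C m6, whose 14.1 CPM was the highest of the group. Blcap and the noncoding RNA Snhg11 fell by 0.58 (SE 0.09) and 0.81 (SE 0.13). Ivns1abp fell from 73.3 to 45.1 CPM (-0.71, SE 0.09).

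**Figure D4:**
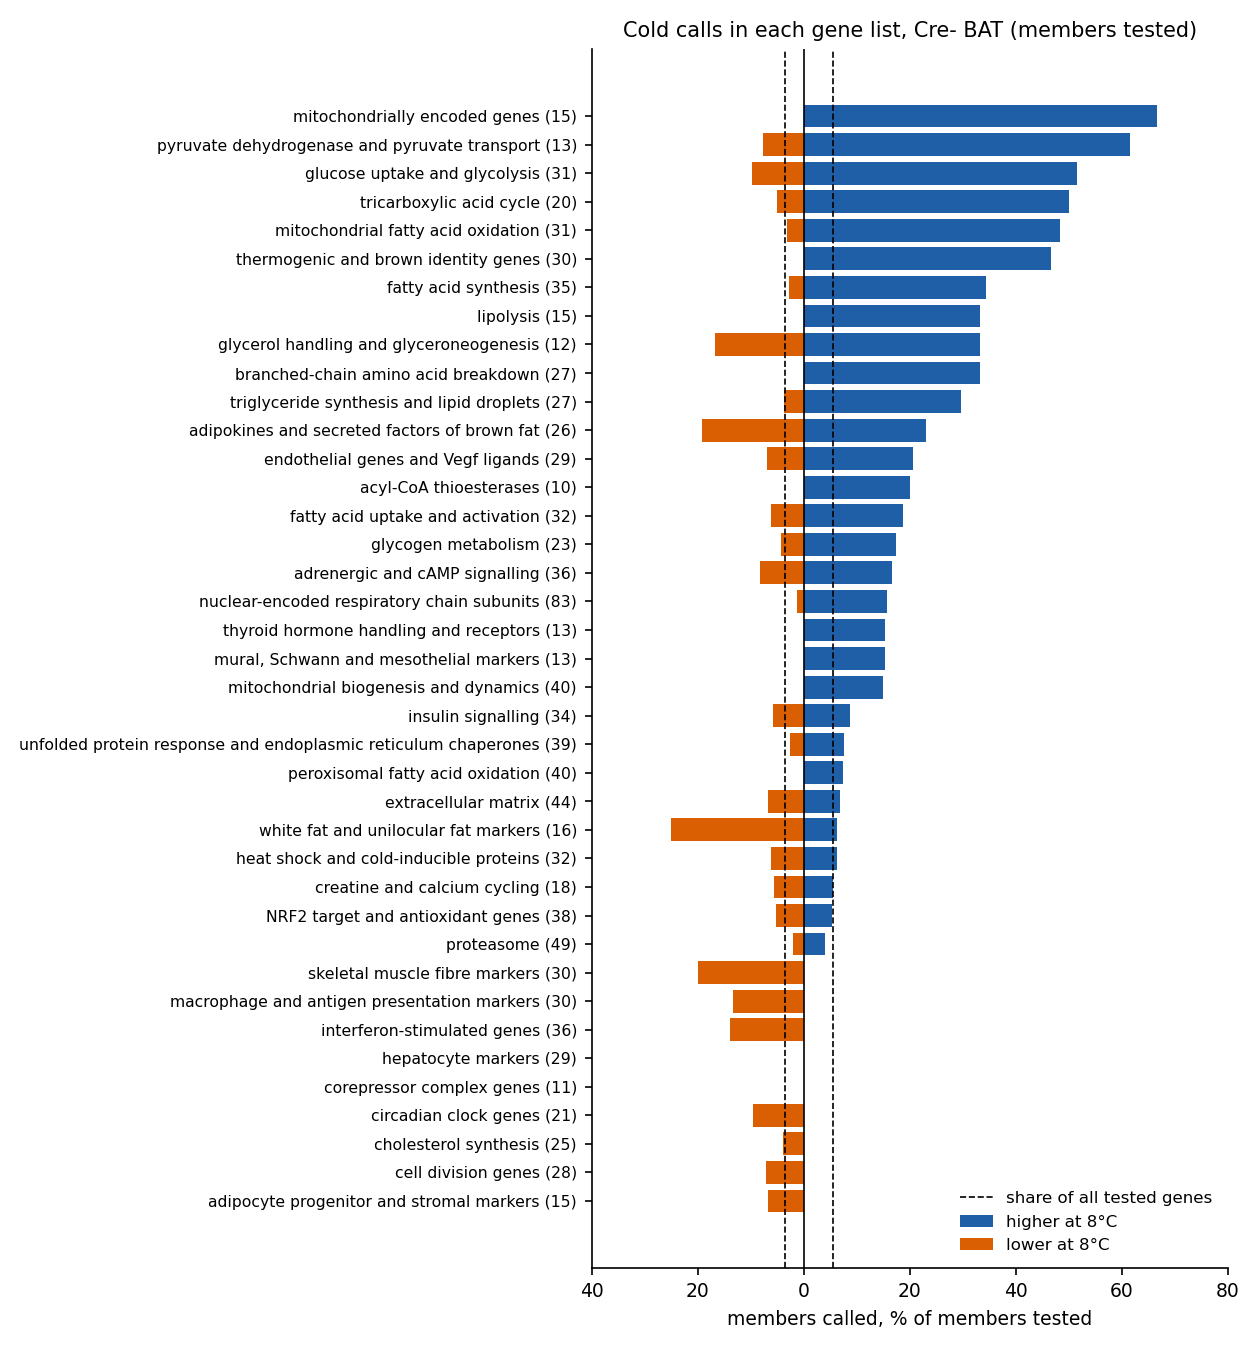
Share of the tested members of each gene list called higher (blue, to the right) and lower (orange, to the left) at 8°C in Cre- mice, in percent, with the number tested in parentheses. Dashed lines mark the share over all tested genes, 5.57% higher and 3.59% lower, and lists of fuel use and mitochondria lie furthest to the right.

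Genes of glucose use, and of the entry of pyruvate into mitochondria, rose in larger shares than all tested genes. Of 31 tested genes of glucose uptake and glycolysis, 16 rose and 3 fell (median log2 fold change 0.38). Pfkl, the liver-type subunit of phosphofructokinase, was at 24.3, 37.8 and 48.9 CPM at 30°C and at 95.7, 147.5 and 160.4 CPM at 8°C, so that the highest warm library lay well below the lowest cold one, and rose by 1.91 (SE 0.19, adjusted p = 1.52e-07). Hk2, the inducible hexokinase, rose from a median of 42.4 to 153.0 CPM (1.68, SE 0.21) and Gpi1, the next enzyme, from 139.9 to 258.1 CPM (0.90, SE 0.10). Slc2a4, the insulin-dependent glucose transporter, was not called (0.38, SE 0.24, adjusted p = 0.434). The 3 that fell were Pfkm, Eno3 and Pgam2, isoforms known from muscle. Pgam2 was picked out after its value was seen (-2.65, SE 0.91). Eno3 reached 195.4 CPM at 30°C against a median of 6.80, and without Cre- 30C m3, the library with 1.95% of muscle fibre transcripts, Eno3 (-1.15, adjusted p = 0.412) and Pfkm (-0.91, adjusted p = 0.103) were not called.

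Of 13 tested genes of the pyruvate dehydrogenase complex, its regulators and the pyruvate carrier, 8 rose and 1 fell (median 0.67). Mpc2, a subunit of the mitochondrial pyruvate carrier, rose from 90.8, 121.3 and 152.9 CPM to 215.6, 266.2 and 339.5 CPM (log2 fold change 1.09, SE 0.16). Pdhb and Pdha1, subunits of the dehydrogenase, rose by 0.90 (SE 0.16) and 0.67 (SE 0.19). Pdk4, the kinase that inhibits the complex, rose as well, from 3.11, 9.83 and 27.2 CPM to 15.5, 37.1 and 55.4 CPM (1.62, SE 0.38, adjusted p = 0.00766), with Cre- 30C m6 inside the cold range, without which the log2 fold change was 2.20 (adjusted p = 0.000194). Pcx, which carboxylates pyruvate, fell by 0.18 (SE 0.06). In glycogen metabolism 4 of 23 rose, led by the branching enzyme Gbe1 (0.47, SE 0.09) and Ugp2 (0.37, SE 0.08), and Pygb fell.

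Genes for making fat and genes for burning it rose side by side. Of 35 genes of fatty acid synthesis, 12 rose and 1 fell (median 0.25). Fasn, fatty acid synthase, was at 1611, 2336 and 2658 CPM at 30°C and at 3104, 4121 and 4883 CPM at 8°C, without overlap (log2 fold change 0.84, SE 0.15, adjusted p = 0.000666). Acaca (0.93, SE 0.20) and Acly (0.78, SE 0.18), which make its substrates, rose in parallel. Me1, an NADPH source (1.02, SE 0.12), and Taldo1, of the pentose phosphate pathway (1.00, SE 0.12), rose as well. So did Thrsp, a lipogenic protein induced by thyroid hormone (0.88, SE 0.12). The desaturase Fads3 fell (-1.09, SE 0.29). Cholesterol synthesis stood near the background. None of its 25 genes rose and 1 fell (4.0%), beside 5.57% higher and 3.59% lower of all tested genes. The one that fell was Fdft1, by 0.27 (SE 0.08).

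Of 31 genes of mitochondrial fatty acid oxidation, 15 rose and 1 fell (median 0.31). Etfdh, which passes electrons from fatty acid oxidation to ubiquinone, rose from a median of 38.0 to 74.0 CPM (log2 fold change 0.93, SE 0.14), Crat, carnitine acetyltransferase, from 31.2 to 58.1 CPM (0.79, SE 0.12), and Acadl from 363.3 to 565.3 CPM (0.64, SE 0.16). Acad12 fell by 0.57 (SE 0.15). Peroxisomal genes stood nearer to the background, with 3 of 40 higher (Slc25a17, Abcd3 and, outside the naming rule, Pex13). Acot11, a further thioesterase that is not in the list, is among the 10 leading genes above and rose from a median of 5.15 to 50.6 CPM (3.35, SE 0.30). Of the 10 thioesterases listed, Acot1 (0.44, SE 0.13) and Them4 (0.28, SE 0.09) rose, whereas Acot2 was not called (0.50, SE 0.18, adjusted p = 0.109).

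Of 15 lipolysis genes 5 rose and none fell. Among those higher were Mgll, monoacylglycerol lipase of the last step (from 276.2 to 453.4 CPM, log2 fold change 0.71, SE 0.07, adjusted p = 4.76e-07), Abhd6 (0.64, SE 0.12) and, picked out after its value was seen, Abhd5, the coactivator of the first lipase (0.89, SE 0.19). The first lipases themselves, Pnpla2 (0.42, SE 0.18, adjusted p = 0.196) and Lipe (0.24, SE 0.19, adjusted p = 0.548) were not called. In triglyceride synthesis and lipid droplets 8 of 27 rose and 1 fell, with Bscl2, seipin (0.58, SE 0.08), Plin5, which binds droplets to mitochondria (0.76, SE 0.11), and Dgat1 (0.68, SE 0.12) among those higher and Hilpda (-0.77, SE 0.23) the one lower. The exons of Bscl2 overlap another annotated gene on its own strand. Glycerol handling shifted strongly in single genes. Gk, glycerol kinase, rose from 15.9, 20.5 and 28.7 CPM to 39.8, 44.8 and 60.2 CPM (1.25, SE 0.12, adjusted p = 1.85e-07) and Gpd1, which makes glycerol 3-phosphate from a glycolytic intermediate, from 232.2, 430.4 and 881.4 CPM to 1033, 1317 and 1745 CPM (1.55, SE 0.22). No cold library lay below a warm one in either. Its relative Gpd1l and the mitochondrial Pck2 fell, by 0.37 (SE 0.12) and 0.78 (SE 0.26), and Pck1 was not called (0.56, SE 0.25, adjusted p = 0.218).

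For fatty acid uptake and activation, 6 of 32 rose and 2 fell. Acsl5, an acyl-CoA synthetase, rose from a median of 104.5 to 193.4 CPM (log2 fold change 0.90, SE 0.10), and Cd36, the fatty acid transporter, by 0.51 (SE 0.17, adjusted p = 0.0832). Lpl, lipoprotein lipase, was at 266.5, 320.3 and 812.4 CPM at 30°C and at 544.9, 733.5 and 818.7 CPM at 8°C and was not called with all libraries (0.66, SE 0.25, adjusted p = 0.13), but was called without Cre- 30C m6 (adjusted p = 0.0134). Angptl4, the inhibitor of that lipase, fell from a median of 85.2 to 30.9 CPM (-1.28, SE 0.19), with Cre- 30C m3, at 38.2 CPM, inside the cold range. Lmf2, a maturation factor of lipases, fell by 0.48 (SE 0.15). In the breakdown of branched-chain amino acids 9 of 27 rose and none fell, among them Dbt, a subunit of the branched-chain ketoacid dehydrogenase (0.66, SE 0.09), and the transporter gene Slc43a2 (0.80, SE 0.11). Bcat2, the first enzyme, was not called (-0.22, SE 0.18).

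Transcripts of the mitochondrial genome rose widely. All 15 mitochondrially encoded genes had a log2 fold change above 0, 10 were called higher, and their median was 0.62. Together they took 19.3 to 29.6% of the counts at 30°C and 26.6 to 34.3% at 8°C, with m6 the highest of the warm libraries. mt-Nd1 rose from a median of 7477 to 12950 CPM (log2 fold change 0.77, SE 0.13) and mt-Nd6, the single protein gene of the light strand, from 2366 to 4240 CPM (0.83, SE 0.12), both without overlap, and mt-Co1 by 0.42 (SE 0.12, adjusted p = 0.04). Reads of these genes can be split with near-identical nuclear copies, of which Gm10925, Gm28437 and Gm28661 were among the 20 genes with the most counts. Of 83 nuclear genes of the respiratory chain, 13 rose and 1 fell (median 0.17). Besides Cox7a1, Uqcrh rose by 0.34 (SE 0.09), Cox4i1 was not called (0.14, SE 0.08), and the one lower was Cox6a2, a muscle isoform, which without Cre- 30C m3 was not called (adjusted p = 0.429). Of 20 genes of the tricarboxylic acid cycle 10 rose, led by Idh3a (0.93, SE 0.23) and the shared subunit gene Dld (0.70, SE 0.19), Idh2 fell by 0.28 (SE 0.08), and Cs, citrate synthase, was not called (0.31, SE 0.22). Genes of mitochondrial biogenesis and dynamics gave 6 higher of 40, with Tfb2m (0.49, SE 0.13) and Immt (0.44, SE 0.12) called and Tfam not (0.08, SE 0.12). Of 18 genes of creatine and calcium cycling, 1 rose and 1 fell (5.56% each, beside 5.57% and 3.59% of all tested genes). Ckb, the brain-type creatine kinase, rose from 10.5 to 21.6 CPM by the median (1.12, SE 0.18). The creatine transporter gene Slc6a8 fell (-0.81, SE 0.22), and Atp2a2 was not called (0.13, SE 0.14).

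Hormone and secreted factor genes moved in both directions. Of 26 adipokines and secreted factors 6 rose and 5 fell. Lep, leptin, was at 2.35, 2.85 and 6.69 CPM at 30°C and at 0, 0.164 and 1.01 CPM at 8°C, with 178 counts in the warm group and 13 in the cold one. Its log2 fold change of -3.43 (SE 0.66, adjusted p = 0.00125) rests on these low counts, and the groups did not overlap. Adipoq fell by 0.58 (SE 0.18) and Retnla, which macrophages also express, by 1.58 (SE 0.44). C1qtnf12 rose from a median of 5.77 to 18.1 CPM (1.26, SE 0.19). Of 16 markers of white or unilocular fat 4 fell, Lep and Cav2 (-0.92, SE 0.20) among them, and Fmo1 rose (0.53, SE 0.13). In insulin signalling 3 of 34 rose and 2 fell (8.82% and 5.88%, beside 5.57% and 3.59% of all tested genes). Mtor (0.82, SE 0.13) and Pdpk1 (0.32, SE 0.08) rose, Irs2 (-0.43, SE 0.13) and Trib3 (-0.72, SE 0.17) fell, and Insr was not called (0.06, SE 0.08). Of 13 genes of thyroid hormone handling only Dio2 and Thrsp rose, and the receptor gene Thrb differed by -0.01 (SE 0.09).

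Several programmes stood near the background shares, 5.57% higher and 3.59% lower of all tested genes. Shares higher and lower were 7.69% and 2.56% for the unfolded protein response and 4.08% and 2.04% for the proteasome. Heat shock genes had 6.25% each and antioxidant genes 5.26% each. Clock and cell division genes had none higher and larger shares lower, 9.52% and 7.14%, which were 2 genes each. In the unfolded protein response 3 of 39 rose and 1 fell, with Derl1 (0.46, SE 0.08) and Ppp1r15b (0.47, SE 0.11) called and Hspa5 (-0.06, SE 0.07) and Atf4 (0.19, SE 0.10) not. Among 49 proteasome genes 2 rose, Psme4 (0.35, SE 0.09) and Nfe2l1, the transcription factor that adjusts proteasome levels in brown fat (0.50, SE 0.10), and Psmb10 fell (-0.49, SE 0.10), and without Cre- 30C m6 there were 4 higher. Of 32 heat shock and cold-inducible genes 2 rose (4 without Cre- 30C m6), Hspa9 (0.55, SE 0.11) and Hspb1 (0.45, SE 0.15, adjusted p = 0.0699), and 2 fell, Hspa12a (-1.60, SE 0.27) and Cryab (-1.59, SE 0.52). When each of the 12 mice was omitted in turn, the call of Hspb1 held in 3 fits. Cryab, abundant in muscle, was not called without Cre- 30C m3 (adjusted p = 0.326). The cold-inducible RNA-binding proteins Cirbp (-0.15, SE 0.11) and Rbm3 (-0.07, SE 0.15) were not called. Among 38 antioxidant genes Sod2 (0.65, SE 0.18) and Txnrd2 (0.43, SE 0.12) rose, Gpx3, a secreted glutathione peroxidase, fell from a median of 566.1 to 259.4 CPM (-1.12, SE 0.28), and Gstm2 fell (-0.34, SE 0.10). Nfe2l2 was not called (0.05, SE 0.08). Of 21 clock genes Bhlhe41 (-0.96, SE 0.29) and Per3 (-0.44, SE 0.14) fell, and Nr1d1 (-0.28, SE 0.14) and Per1 (-0.33, SE 0.17) were not called. Of 28 genes of cell division Pclaf (-1.14, SE 0.31) and Ccne2 (-0.62, SE 0.20) fell, and Mki67 (-0.01, SE 0.22) and Top2a (0.34, SE 0.27) were not called. None of the 11 corepressor genes was called, Tbl1xr1 (-0.20, SE 0.18) and Tbl1x (-0.04, SE 0.11) included.

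Markers of the other cells of the tissue moved in both directions, and in bulk RNA fewer cells of a type and less RNA per cell cannot be told apart. Over all tested genes 5.57% rose and 3.59% fell. Of 29 endothelial genes and Vegf ligands 6 rose and 2 fell. Kdr, a receptor of VEGF, rose from 72.1, 77.5 and 80.9 CPM to 90.2, 105.0 and 118.6 CPM (log2 fold change 0.44, SE 0.08) and Pecam1 by 0.47 (SE 0.12), while Angpt1 (-1.27, SE 0.38) and Cd34 (-0.93, SE 0.25) fell. Vegfa was not called with all libraries (0.47, SE 0.19, adjusted p = 0.165) but was without Cre- 30C m6 (adjusted p = 0.00444), which held 135.8 CPM. In the matrix 3 of 44 rose and 3 fell, 6.82% each, not far from the shares of all tested genes. Loxl1 (1.22, SE 0.25) and P4ha1 (0.95, SE 0.23) were higher, Timp4 and Lamb2 (-0.95, SE 0.17) lower, and Col1a1 (-0.51, SE 0.27) not called. Of 36 interferon-stimulated genes none rose and 5 fell, led by Apol6 (-1.47, SE 0.31) and Gbp7 (-0.59, SE 0.15), and Isg15 was not called (-0.12, SE 0.22). Of 30 macrophage and antigen presentation markers 4 fell, among them Cx3cr1 (-1.15, SE 0.30) and Cd74 (-0.48, SE 0.15). Adgre1 (-0.09, SE 0.20) and Cd68 (-0.34, SE 0.17) were not called. This list also holds Lpl, given above under fatty acid uptake, which had its highest log2 fold change (0.66). With Lpl included, the median share of the counts in this list was 0.0912% at 30°C and 0.112% at 8°C. The lymphocyte and neutrophil list had 4 tested genes and no call. Of 15 progenitor markers 1, Cd34, fell with all libraries (6.67%) and 3 without Cre- 30C m6. Pdgfra (0.06, SE 0.26) and Pi16 (-0.86, SE 0.43) were not called. Of 13 mural, Schwann and mesothelial markers S100b and Rgs5 (0.58, SE 0.16) rose, and Acta2 was not called (-0.47, SE 0.30). All 30 muscle fibre markers had a log2 fold change below 0 (median -1.95) and 6 fell. Their share of the counts had a median of 0.0627% at 30°C and 0.12% at 8°C, so that by the median the cold libraries held more, and the lower values at 8°C rest on Cre- 30C m3 and m1. Without Cre- 30C m3 no marker was called (median -0.85), without m1 1 was, and without m6 16 were. The calls with all libraries were led by Actn3 (-2.87, SE 0.88), which was not called without Cre- 30C m3 (adjusted p = 0.362). Acta1 ranged from 0 to 2620 CPM within the warm group and, like Ckm (-2.64, SE 0.96, adjusted p = 0.107), was not called.

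The same genes were then followed in the 12 BATdKO libraries, which share none with the Cre- comparison. Cold changed 883 genes there (7.07%), 470 higher and 413 lower. Of the 695 genes higher in Cre- mice, 614 (88.3%) had a log2 fold change above 0 in BATdKO mice and 273 (39.3%) were called higher, which is 58.1% of the genes called higher in BATdKO mice. Of the 448 lower, 400 (89.3%) were below 0 and 124 (27.7%) were called lower, 30.0% of the BATdKO calls in that direction. Opposite calls were 2 among the higher and 2 among the lower. How often all tested genes had the same direction in both genotypes was not counted, so 88.3% and 89.3% stand without a background share. The median log2 fold change of the higher genes was 0.59 in Cre- and 0.31 in BATdKO mice, of the lower -0.51 and -0.24, but these genes were picked by their size in Cre- mice, so that a smaller value elsewhere is not evidence of a weaker response.

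**Figure D5:**
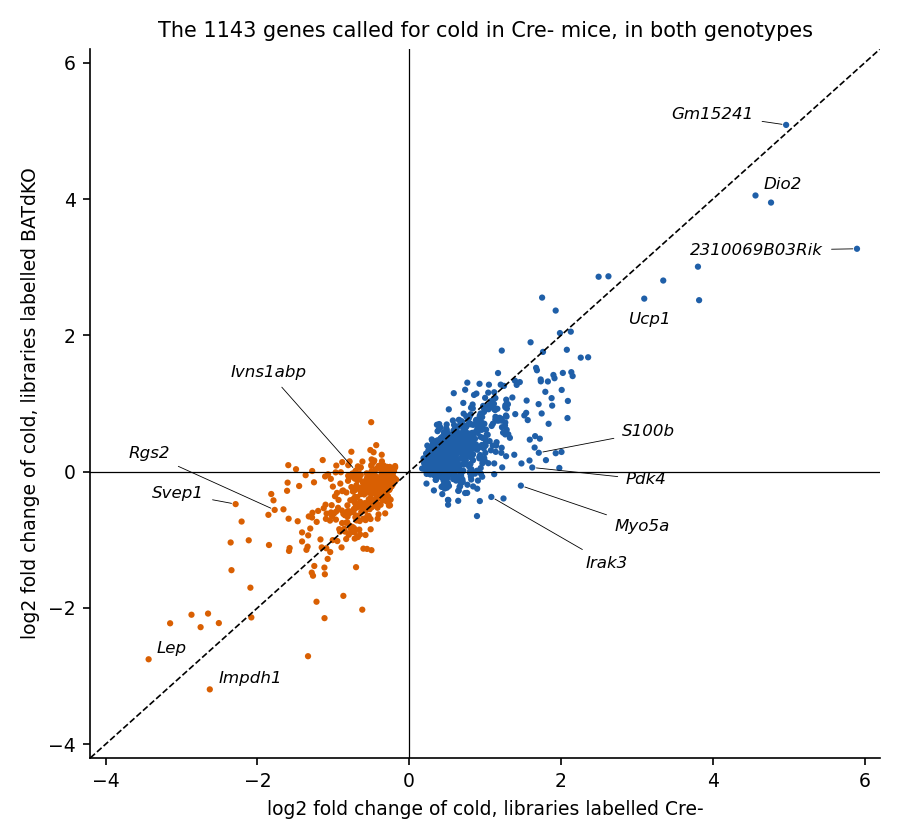
Each point is 1 of the 1143 genes called for cold in Cre- mice, with the log2 fold change of 8°C against 30°C in libraries labelled Cre- on the x axis and in libraries labelled BATdKO on the y axis, and equality as the dashed line. Of the genes to the right of 0, 614 lie above 0 on the y axis, and of those to the left, 400 lie below it.

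Dio2 rose by 4.05, Ucp1 by 2.54, Gk by 1.26, Hk2 by 1.49 and Ckb by 1.17 on the log2 scale in BATdKO mice, and Impdh1 fell by 3.20. The difference between the cold effects was called for 12 of 12485 genes (0.0961%), with 1005 at an unadjusted p under 0.05, and of the 12, 7 were called for cold in Cre- mice. The number was 32 without Cre- 30C m6 and 44 without m6 of either genotype at 30°C. Ivns1abp, a binding partner of an influenza protein that also regulates actin, was the one of the 20 leading genes among them. It had a log2 fold change of -0.71 (SE 0.09) in Cre- and 0.02 (SE 0.09) in BATdKO mice, a difference of -0.72 (SE 0.13, adjusted p = 0.0303). Irak3, an inhibitor of Toll-like receptor signalling, and Myo5a, a motor protein, were picked out of the 12 after their values were seen. Irak3 changed by 1.08 (SE 0.18) and -0.37 (SE 0.19), Myo5a by 1.47 (SE 0.25) and -0.21 (SE 0.24), and the adjusted p of the difference was 0.0303 and 0.062. Genes called in Cre- mice and not in BATdKO mice were not thereby shown to differ. Pdk4 (0.06 in BATdKO mice, adjusted p of the difference 0.391), S100b (0.28, 0.313), Rgs2 (-0.56, 0.126), Svep1 (-0.48, 0.167) and Fasn (0.17, 0.358) are examples in which the difference was not called.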

How the data were processed

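BAT RNA of 24 mice was sequenced with the QuantSeq 3′ kit. The authors removed adapters with BBDuk, used STAR 2.5.3a to map reads to GRCm38 and Rsubread to count them, and deposited the raw count of each gene, not normalized. The annotation release, the strand setting and the rule for omitted low genes are not given in the sources used here. The table held 12615 genes, 12608 of them matched to a symbol, and 351 with a mean count under 10.

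Columns were matched to samples by the labels. The analysis used edgeR 4.0.16 and limma 3.58.1 under R 4.3.3, by TMM normalization, filterByExpr on the 4 groups (12485 genes kept) and a quasi-likelihood fit to all 24 libraries, with Benjamini-Hochberg adjustment over all tested genes and the threshold of 0.1. The SE was obtained from the log2 fold change and the F statistic. Data were simulated for this comparison (12444 genes in edgeR), with 200 genes changed by a log2 fold change of 1. Of the changed genes edgeR and DESeq2 each called 86.5%, and they called 18 and 24 unchanged ones. The changed genes had a mean count of at least 10, and no library was simulated as distant. Most genes called in the real data changed by less than 1, so 86.5% does not describe their recovery. Alternatives were DESeq2 1.42.0, RLE, no filter, a mean count of at least 10, robust dispersion, only the Cre- libraries, stricter thresholds and leaving out each Cre- mouse.

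Gene lists, 41 in all, were written by hand from general knowledge. They, the comparison and the tests were chosen with earlier results of these data known, so lists were counted and not tested. Named genes are the 10 with the smallest p in each direction, set anchor genes of each list whatever their values, and the 2 members with the smallest p called in each direction in each list. Some of these genes are not reported here. Gene positions and exon overlaps are from GENCODE vM21. Of 165 named genes 9 share exon sequence with another gene on their own strand and 51 on the other strand. Promoters are from RefSeq, available for 8675 tested genes and for 17 of the 20 leading genes. P-values set each difference against the spread between mice, which the common fit estimates over all 24 libraries. They do not cover a difference between the 2 runs of library numbers.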

Additional observations from a re-analysis of the deposited data

Results flagged for a closer look

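Among 330 pairs of a named gene and a group of 6, 30 had a highest or lowest library whose gap to its neighbour exceeded Dixon's 95% critical value for 6 samples. Chance flags about 1 in 20 such pairs. The library Cre- 30C m6 was the distant one in 10, more than any other library, for Adcy9 (35.52 CPM), Gpd1 (881.4 CPM), Letm1 (104.7 CPM), Ppargc1a (22.24 CPM), Psma1 (54.77 CPM), Slc25a17 (22.96 CPM), Tbl1xr1 (38.61 CPM), Tfb2m (37.27 CPM), Ucp1 (547.9 CPM), Vegfa (135.8 CPM). It was the high library in each of the 10, among them genes that rose in the cold and, in Adcy9, a gene that fell. In Cre- 30C m1 the distant values were those of Hk2 (67.14 CPM), Loxl1 (6.533 CPM), Retnla (55.25 CPM), Xist (50.21 CPM). In Cre- 30C m2 the distant values were those of Fdft1 (60.7 CPM), Gm15241 (0.9404 CPM). In Cre- 30C m3 the distant values were those of Acad12 (6.217 CPM), Ddhd2 (25.95 CPM). In Cre- 30C m4 the distant values were those of Ccne2 (1.367 CPM), Ugp2 (87.48 CPM). In Cre- 30C m5 the distant values were those of Aqp1 (146.1 CPM), Per3 (35.05 CPM), Them4 (24.56 CPM). In Cre- 8C m2 the distant values were those of Crat (42.31 CPM), Per1 (4.014 CPM), Pfkl (95.67 CPM), Top2a (10.87 CPM), Uqcrh (481 CPM). In Cre- 8C m3 the distant values were those of Ccne2 (5.179 CPM), Svep1 (0.5755 CPM).

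The cold effect on Ivns1abp differed between the labelled genotypes by the interaction term of edgeR, at -0.72 on the log2 scale (Cre- minus BATdKO, adjusted p = 0.0303). It was lower at 8°C in Cre- mice without overlap of the groups and nearly level in BATdKO mice.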

How the results depend on the processing

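The direction of no named gene and no count was reversed under any alternative. Of 123 called named genes, 39 stayed called in each setting, thresholds included. No paired analysis was possible because mouse numbers pair no animals between groups. Leaving out each Cre- mouse in turn gave 791 to 1343 called genes, 514 to 813 higher and 252 to 530 lower, 811 to 981 in BATdKO mice, 7 to 37 for the difference between genotypes and 86.55 to 91.77% of Cre- calls with the same direction in BATdKO mice. The count of lower genes moved by over 1.5 times without Cre- 8C m4 (277) or m6 (252), and that of the difference without Cre- 30C m1 (35) or m6 (32) and Cre- 8C m2 (37) or m5 (7). At an adjusted threshold of 0.05 there were 757 called genes, 240 lower ones, 543 in BATdKO mice and 7 for the difference. With a log2 fold change of at least 1 added there were 200 called, 130 higher and 70 lower, 128 in BATdKO mice, 7 for the difference and 96.0% with the same direction. The difference was called for 51 genes by DESeq2 and 21 with robust dispersion. Added after seeing the data, leaving out m4 and m6 of Cre- 30C gave 1462 called genes in Cre- mice and 25 for the difference. Leaving out m6 of both genotypes at 30°C gave 1651 in Cre- mice, 944 higher and 707 lower. It gave 766 in BATdKO mice and 44 for the difference. DESeq2 called 1143 genes (710 higher, 433 lower) and the 12 Cre- libraries alone 930. The cause of these moves was not tested. Depth limits Cre- 30C m4 most, and low genes such as Lep rest on few counts.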
